A study of Mus musculus with 172 samples.

Results

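The ephrins and Eph receptors described here were 10 genes (Efna1, Efna3, Efna4, Efna5, Efnb1, Efnb2, Epha1, Epha2, Epha4 and Ephb4) of the 22 genes of this family that the mouse annotation and the count files hold. They were chosen by symbol because their levels had been seen to differ between groups of these same cells, with gain of Efna1 in the absence of OCT4 as the leading observation and the receptors added as possible partners. The differences between the groups therefore chose the members, and those values are given as a description with no p. Where a fitted value of a member is said to pass or miss the threshold over all genes, this describes the fit and is not independent evidence of a difference. The cells were inner cell mass (ICM) cells of mouse blastocysts from matings of Pou5f1 heterozygotes on mixed genetic backgrounds, sequenced one by one with Smart-seq2 (a method that reads full-length transcripts). At embryonic day (E) 3.5 there were 58 cells from 7 control embryos (5 WT and 2 HET, pooled as WT/HET) and 29 cells from 4 embryos lacking Pou5f1 (MUT). At E4.5 the 6 control embryos (2 WT and 4 HET) gave 37 epiblast (EPI) and 29 primitive endoderm (PrE) cells, and 2 MUT embryos gave 19 cells that carry no lineage label. Pou5f1 encodes OCT4, and MUT embryos lack only their own copies, so OCT4 supplied by the heterozygous mother can have acted before these stages. ICMs were freed from the outer trophectoderm (TE) by antibody lysis, and the TE lysate gave the genotype.

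Counts were summed over the cells of each embryo, and at E4.5 separately over its EPI and PrE cells, which gave 25 sums with 2736296 to 17453036 counts. Of the 172 cells, 9 were shallow (under 0.5 of the median depth of their stage), 5 of them among the E3.5 WT/HET cells. Levels below are counts per 1000000 counts (CPM) of such a sum, on 1 scale over all 25 sums, and the embryo is the replicate. A level of a sum mixes how many cells have a transcript with how much each cell has, which cannot be told apart in the sum, so shares of cells are given as well. All E3.5 cells came from 1 plate and all E4.5 cells from another, so stage and plate cannot be told apart. Pou5f1 itself lay at 199 to 435 CPM in the 7 E3.5 WT/HET embryos and at 2.73 to 5.93 CPM in the 4 E3.5 MUT embryos. At E4.5 it was at 70.2 to 242 CPM in EPI and 46.8 to 152 CPM in PrE, with 0 counts in both MUT embryos, which puts it at least 1606-fold higher in EPI over the group, taking 3 counts as the floor. The split of MUT from control labels thus matched the targeted gene in every embryo, while WT and HET were pooled here and not told apart. All 10 PrE markers of the list used here were higher in PrE than in EPI and all 10 EPI markers were higher in EPI, a comparison that describes the labels only, since the lineages were assigned on these libraries.

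Ephrins are membrane-bound ligands and Eph proteins are the receptor tyrosine kinases that bind them on neighbouring cells. Ephrin-A ligands are held by a lipid anchor and mostly bind EphA receptors, ephrin-B ligands span the membrane and mostly bind EphB receptors, and EphA4 binds both classes. Signals run into the receptor-bearing cell and back into the ligand-bearing cell, and they are known for keeping cell populations apart and for adjusting adhesion. EphA2 is a well-known receptor of ephrin-A1 in epithelia. When both stand on the same cell surface, ligand and receptor can also dampen each other.

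Efna1, which encodes ephrin-A1 (ENSMUSG00000027954, chr3:89271733-89281142 on the minus strand of GRCm38), was near 0 in most control sums and well above them in every MUT embryo at both stages. In the 7 E3.5 WT/HET embryos it was at 0 CPM at the lowest, 1.15 at the median and 3.83 at the highest. In the 4 E3.5 MUT embryos it was at 89.1, 40.6, 51.7 and 43.5 CPM. The lowest MUT embryo was above the highest control embryo, with means of 56.2 ± 22.4 (SD, n = 4) and 1.43 ± 1.36 (SD, n = 7). The fitted log2 fold change was 5.32 ± 0.74 (SE), and the share of all counts was 36.1 times that of the controls, with an exact 95% interval of 30.0 to 43.9 that covers counting error only.

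At E4.5 the MUT embryos had Efna1 at 96.7 and 77.6 CPM, again above every control sum. In EPI it was at 0 in 5 of 6 embryos and at 2.75 CPM in embryo 5, all from a single cell. In PrE it was at 0 in 4 of 6 embryos, at 5.19 CPM in embryo 2 and at 26.7 CPM in embryo 6, which holds only 2 PrE cells and had all of its 82 Efna1 counts in 1 of them. The fitted log2 fold change was 7.38 ± 1.85 against EPI and 4.10 ± 2.10 against PrE. Neither passed the threshold over all genes (adjusted p under 0.05 by edgeR's quasi-likelihood test), and the 2 comparisons share the MUT embryos. Without embryo 5, whose single cell gives all EPI counts, the fit against EPI passed it, with EPI then at 0 throughout, so that the fitted value is no bound. Without embryo 6 the log2 fold change against PrE was 6.34, still short of the threshold.

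**Figure D1:**
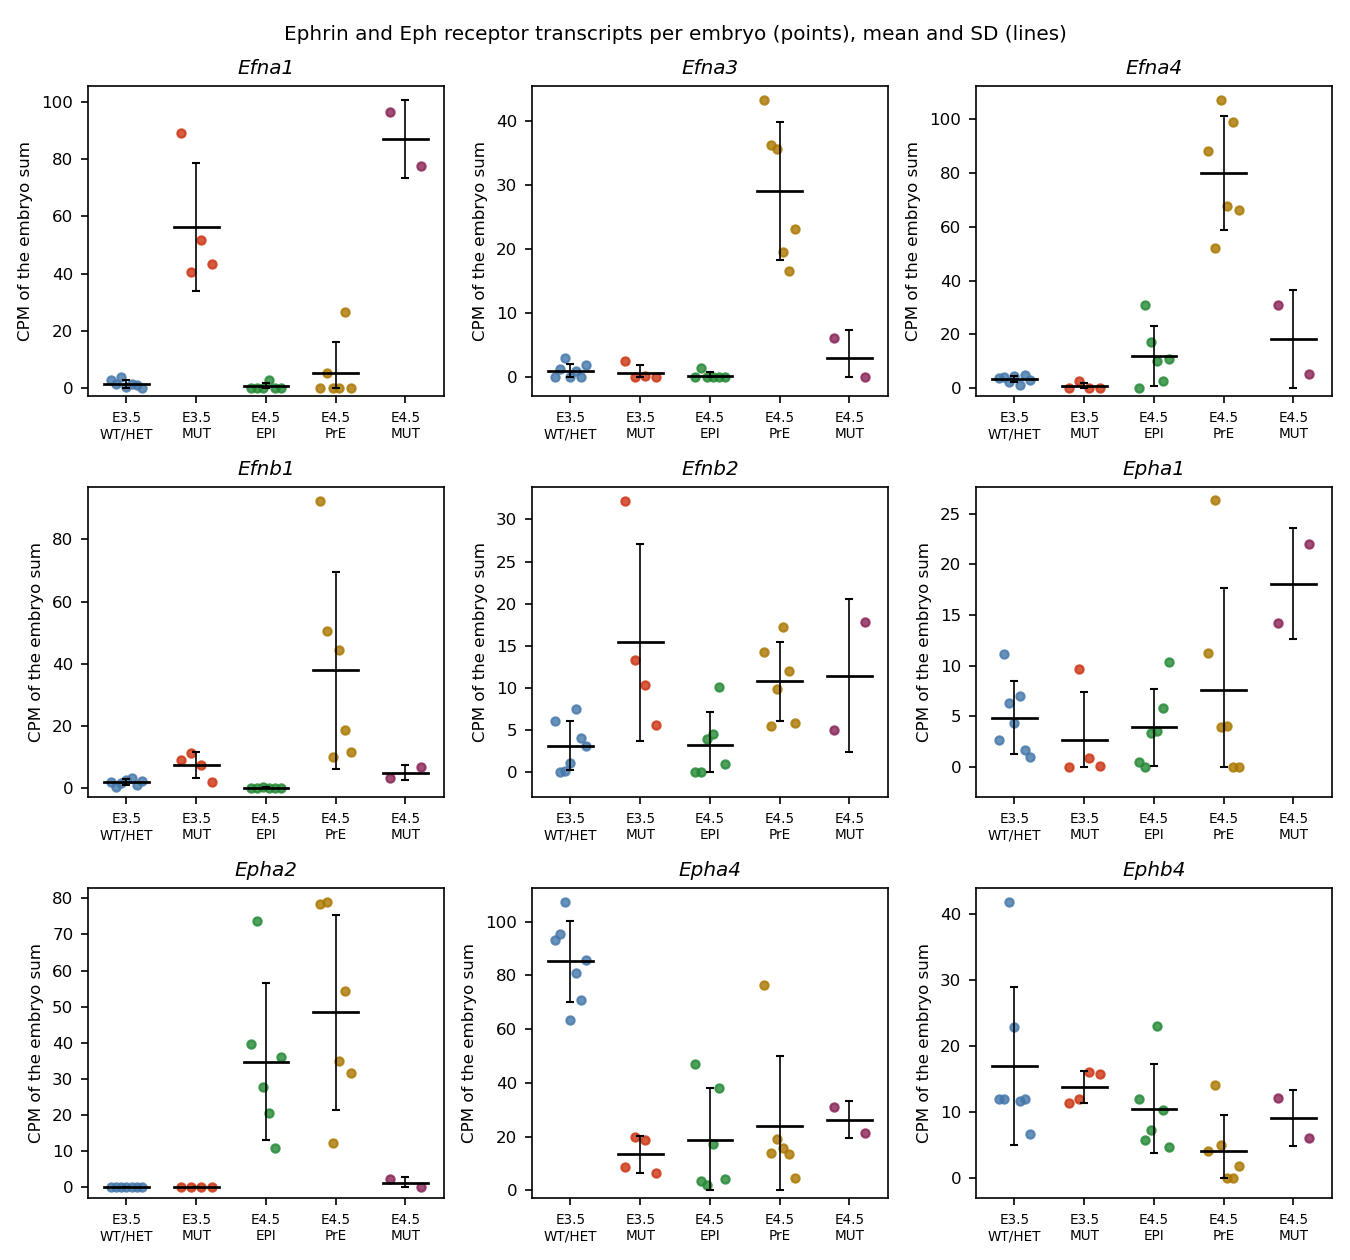
Levels of 9 of the 10 members in CPM (vertical axes, each panel on its own linear scale) for the 5 groups, with a point for each embryo sum, a horizontal line at the mean and a bar of 1 SD cut at 0; Efna5 is left out because it was near 0 throughout. Efna1 is high only in the 2 MUT groups, Efna3, Efna4 and Efnb1 are highest in PrE, Epha2 is near 0 at E3.5 and in the E4.5 MUT embryos, and Epha4 is highest in E3.5 WT/HET.

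The gain of Efna1 was spread over most MUT cells at E3.5. At least 1 count was found in 26 of 29 E3.5 MUT cells (89.7%, exact 95% interval 72.6 to 97.8). Among WT/HET cells it was found in 13 of 58 (22.4%, 12.5 to 35.3). These intervals treat the cells of an embryo as independent. Per embryo the mean share was 88.75 ± 13.1% (SD, n = 4) in MUT and 20.6 ± 18.9% (SD, n = 7) in WT/HET. At 10 CPM or more the cells numbered 25 of 29 and 3 of 58. At E4.5 it was found in 13 of 19 MUT cells (68.4%), 1 of 37 EPI cells and 3 of 29 PrE cells. The median cell had 30.3 CPM at E3.5 and 46.6 CPM at E4.5 among MUT cells, and 0 in each control group. Single cells carried much of some sums, since 1 cell gave 82.8% of the Efna1 counts of MUT embryo 19 and 49.6% of those of MUT embryo 3. Cells thinned to 1 depth within a stage gave 25 of 27 MUT and 10 of 53 WT/HET cells at E3.5.

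The summed level of TE markers was higher in MUT, so it stands beside Efna1. Of the 12 markers on the list, 2 of 8 tested passed the threshold by edgeR at E3.5, 5 of 10 against EPI and 2 of 11 against PrE, all higher in MUT. The mean level was higher in E3.5 MUT for 6 of the 12 and not for the other 6 (Tfap2c, Krt8, Krt7, Cdx2, Elf5 and Gata2), and at E4.5 it was higher in MUT for all 12. The summed level of 12 TE markers was 660 to 1323 CPM in E3.5 MUT embryos and 217 to 838 CPM in E3.5 WT/HET embryos. At E4.5 it was 3865 to 4987 CPM in MUT, 41.2 to 111 CPM in EPI and 104 to 492 CPM in PrE, and the highest PrE value was that of embryo 6. Of the 12 markers, Gata2 was at 0 in all E3.5 MUT embryos and none was at 0 in both E4.5 MUT embryos. Gata3, a TE transcription factor, was at 148 to 187 CPM in E3.5 MUT and 0.487 to 18.96 CPM in E3.5 WT/HET. The control embryo with the most TE marker RNA, embryo 15, reached 838 CPM of the list, inside the range of the E3.5 MUT embryos, with Efna1 at 1.31 CPM. The sum mixes markers that behaved unlike each other at E3.5, so sums of like size can rest on different markers. Krt8 reached 431 CPM in WT/HET and 351 CPM in MUT embryos, and Krt18 173 and 245 CPM. Hand1, like Gata3, stayed lower in every WT/HET embryo (at most 28.04 CPM) than in any MUT embryo (122 to 200 CPM). Within the MUT cells of a stage, after the mean of each embryo was removed, the rank correlation of Efna1 with the summed TE markers was 0.0204 over 29 cells at E3.5 and 0.261 over 19 cells at E4.5, which are weak in counts this sparse. Markers of the other lists were found in E4.5 MUT too. The 10 EPI markers summed to 8168 to 11108 CPM there and 7871 to 9411 CPM in EPI. Dppa5a alone averaged 8800 and 5659 CPM. Against EPI, 1 of these 10 passed by edgeR as higher in MUT and 4 as lower. The 10 PrE markers summed to 557 to 803 CPM in MUT, 5.75 to 74.1 CPM in EPI and 3013 to 7002 CPM in PrE. The part of TE-like RNA in the Efna1 level was not tested.

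**Figure D2:**
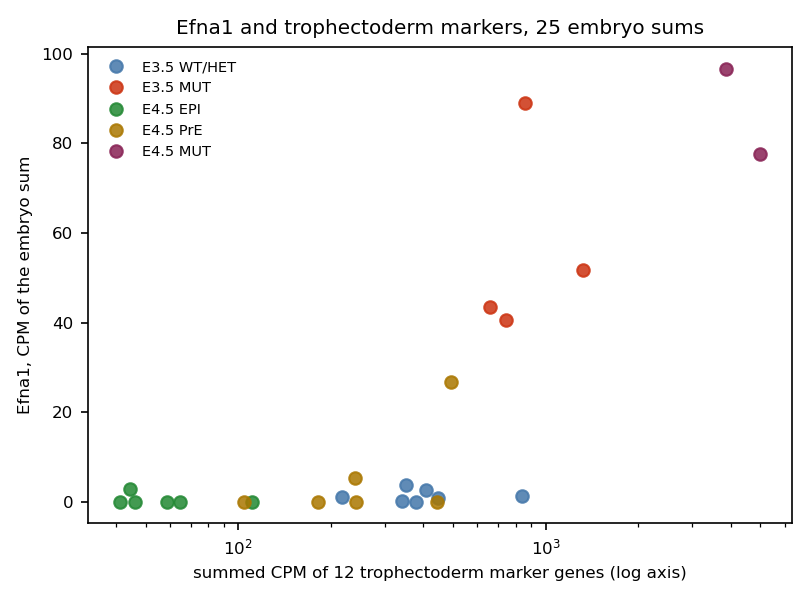
Efna1 in CPM (vertical axis, linear) against the summed CPM of 12 TE marker genes (horizontal axis, log scale) for the 25 embryo sums, coloured by group. The 6 MUT sums lie between 40.6 and 96.7 CPM of Efna1, and the control sum with 838 CPM of TE markers lies at 1.31 CPM. Sums of like size can rest on different markers.

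The genes whose levels followed Efna1 most closely over the 25 sums were Btg1 (Pearson r = 0.835 of log2 CPM), Gata3 (0.769), Prdx5 (0.740), Tinagl1 (0.737) and Tmub2 (0.732), out of 6005 genes with a mean of at least 20 CPM. The sums share plates, embryos and depth, and these values are descriptions with no p. Btg1, which encodes an antiproliferative protein, averaged 246 CPM in E3.5 MUT and 358 CPM in E4.5 MUT, against 51.7 in E3.5 WT/HET, 25.997 in EPI and 121 in PrE. Tinagl1, a secreted matrix protein gene, averaged 256 and 590 CPM in the MUT groups and 76.8, 26.5 and 50.9 CPM in the controls.

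Efna1, Efna3 and Efna4 lie side by side on chromosome 3, all on the minus strand, with gaps of 32756 and 10424 bases between them. Efna1 was the gene of the 3 with the highest level in each MUT embryo. There Efna3 was at 0 to 2.46 CPM at E3.5 and at 6.12 and 0 CPM at E4.5, and Efna4 was at 0 to 2.59 CPM and at 31.04 and 5.47 CPM. In E3.5 WT/HET embryos Efna3 was at 0 to 2.93 CPM and Efna4 at 1.26 to 4.80 CPM, overlapping MUT in both cases. Of the 39 other genes within 200 kb of Efna1, 23 were tested at E3.5 and 1 passed, a share of 4.35% beside 6.18% of all genes. The gene that passed was Adam15, which encodes a membrane metalloprotease. It was at 25.7 ± 7.58 CPM (SD, n = 4) in MUT and 61.3 ± 16.9 CPM (SD, n = 7) in WT/HET, with a log2 fold change of -1.23 ± 0.28 and an adjusted p of 0.0215 by edgeR, and this call was lost without MUT embryo 17 or 19. In each E4.5 MUT comparison 24 of these 39 genes were tested and 0 passed by edgeR. Of all genes 4.92% passed against EPI and 3.81% against PrE. Among the neighbours 7 against EPI and 4 against PrE had an unadjusted p under 0.05. DESeq2 called 3 and 1 of the neighbours, and limma 5 and 2. Of all genes, 2455 of 12953 against EPI and 2015 of 12246 against PrE had an unadjusted p under 0.05 by edgeR. DESeq2 called 1714 and 1224 of all genes, and limma 1479 and 1097. The median log2 fold change of these neighbours at E3.5 was -0.26, beside -0.02 over all genes tested. At E4.5 it had the other sign, at 0.74 against EPI (beside -0.03) and 0.62 against PrE (beside 0.05).

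Epha4, a receptor of both ephrin classes (ENSMUSG00000026235, chr1:77367185-77515088), went the other way at E3.5. It was at 63.4 CPM at the lowest, 85.6 at the median and 107 at the highest in the 7 WT/HET embryos. The 4 MUT embryos had 8.53, 19.7, 18.6 and 6.61 CPM, all below every control embryo, with a log2 fold change of -2.65 ± 0.32. It was found in 55 of 58 WT/HET cells and 14 of 29 MUT cells. At E4.5 its levels overlapped between the groups, at 1.91 to 47.0 CPM in EPI, 4.74 to 76.5 CPM in PrE and 31.1 and 21.4 CPM in MUT. The log2 fold change of MUT was 0.47 ± 1.18 against EPI and 0.14 ± 0.98 against PrE, both smaller than their SE. The sign turned against EPI with WT embryos as sole controls (-0.12), and against PrE with limma (-0.23) and without embryo 3 or 7 (-0.07 each). In controls it was lower at E4.5 than at E3.5 by a log2 fold change of -2.19 ± 0.63 in EPI and -1.84 ± 0.50 in PrE.

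Epha2 (ENSMUSG00000006445, chr4:141301240-141329384) was near 0 in both groups at E3.5 and in E4.5 MUT. At E3.5 it had 4 counts in 3 of 58 WT/HET cells and 1 count in 1 of 29 MUT cells, too few to be tested. At E4.5 it was at 10.9 to 73.7 CPM in EPI and 12.2 to 78.9 CPM in PrE, and found in 26 of 37 and 21 of 29 cells. The MUT embryos had 2.33 and 0 CPM, both below every EPI and PrE sum, and all 40 counts came from 1 of 19 cells. The share of all counts was 23.9 times higher in EPI than in MUT (exact 95% interval 17.5 to 33.6) and 36.5 times higher in PrE (26.8 to 51.3). Both intervals cover counting error only and treat the 40 counts of 1 cell as independent, so they are too narrow. By DESeq2 Epha2 was called lower in MUT against EPI and against PrE, and by limma against EPI only. The log2 fold changes of MUT fitted by edgeR, -4.90 ± 1.58 against EPI and -5.33 ± 1.57 against PrE, did not pass the threshold. Both passed it without MUT embryo 3, which has the only MUT cell with Epha2 at E4.5, so that MUT was then at 0 and the fitted value no bound. Between EPI and PrE the difference was -0.48 ± 0.52, and from E3.5 WT/HET the level was higher by 9.16 ± 0.90 in EPI and 9.60 ± 0.87 in PrE on the log2 scale, fits that depend on the prior count because E3.5 was close to 0.

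In controls, though not in MUT, both receptors moved in opposite directions between the stages, which are also the plates. Their promoters are therefore shown, as the 250 bases before the start that RefSeq gives on GRCm38.p6, read along each gene's own strand. Capitals mark the letters of a TEAD motif (GGAATG or its reverse complement CATTCC), the site of factors active in TE.
Epha2, chr4:141300971-141301220, plus strand: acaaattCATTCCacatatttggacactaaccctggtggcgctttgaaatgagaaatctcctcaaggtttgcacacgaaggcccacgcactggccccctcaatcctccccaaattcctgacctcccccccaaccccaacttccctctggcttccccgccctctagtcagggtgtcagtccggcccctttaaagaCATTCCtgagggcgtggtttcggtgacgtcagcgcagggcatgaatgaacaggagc
Epha4, chr1:77515089-77515338, minus strand: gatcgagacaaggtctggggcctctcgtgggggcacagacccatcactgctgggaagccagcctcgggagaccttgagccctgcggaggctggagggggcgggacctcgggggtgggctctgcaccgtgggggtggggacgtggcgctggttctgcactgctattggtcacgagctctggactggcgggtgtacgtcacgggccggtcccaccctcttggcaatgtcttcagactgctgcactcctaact
The Epha2 window holds the TEAD letters at 2 places, 243 and 56 bases before the start, and the Epha4 window holds none. Among the other members, the windows of Efnb2 and Epha1 hold them too, 105 and 161 bases before the start. Some 12.6% of 32851 such windows hold them at least at 1 place. Neither window holds the octamer ATGCAAAT that OCT4 binds, found in 1.60% of windows, or the GATA letters AGATAA, found in 9.99%. All 3 motifs were searched on both strands and do not overlap here, and a match is not a site.

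**Figure D3:**
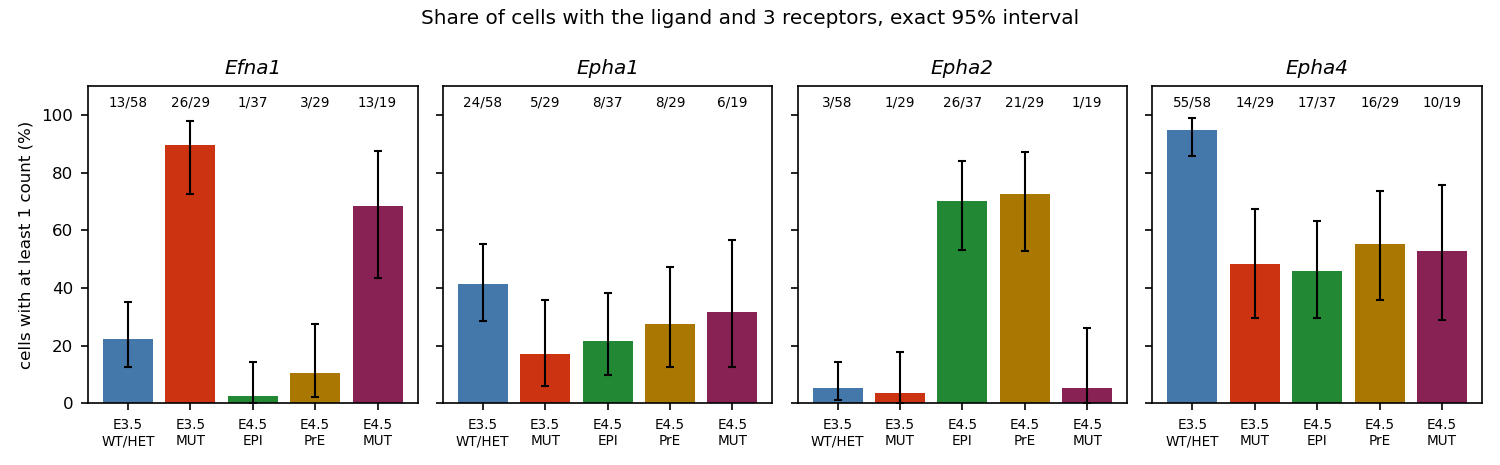
Share of cells in percent with at least 1 count of Efna1, Epha1, Epha2 or Epha4 (vertical axes) in the 5 groups, with exact 95% binomial intervals as bars and the numbers of cells above. The intervals treat the cells of an embryo as independent. Efna1 is found in 26 of 29 and 13 of 19 MUT cells, where Epha2 is found in 1 of 29 and 1 of 19.

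Epha1 (chr6:42358487-42373268), the remaining EphA receptor among the members, was at 14.2 and 21.97 CPM in the E4.5 MUT embryos. It was at 0 to 10.3 CPM in EPI and 0 to 26.3 CPM in PrE, so MUT lay above every EPI sum and overlapped PrE. At E3.5 it was at 0.974 to 11.2 CPM in WT/HET and at 9.68 CPM in MUT embryo 12, with at most 0.854 CPM in the other 3. Some 6.01% of its exon bases overlap those of Zyx, and reads there could not be assigned.

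Co-detection in a cell followed these levels. In E3.5 MUT, 12 of the 26 cells with Efna1 had Epha4, 4 had Epha1 and 1 had Epha2, and 14 had at least 1 of the 3. In E4.5 MUT, 6 of the 13 cells with Efna1 had Epha4, 5 had Epha1 and 1 had Epha2, and 9 had at least 1. Each count of a single pair is within 1 cell of the product of the 2 shares, and a gene missed in a cell at this depth is not shown to be absent. In controls at E4.5, Efna4 and Epha2 were found together in 19 of 29 PrE cells, in all 6 embryos, and in 7 of 37 EPI cells.

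Of the other ephrins, Efna4, Efna3 and Efnb1 were highest in PrE. Efna4 (ephrin-A4, chr3:89333390-89338028) was at 87.9, 52.2, 107, 67.7, 99.0 and 66.1 CPM in the 6 PrE sums. In EPI it was at 0, 30.9, 17.04, 10.2, 2.52 and 10.8 CPM in the same order of embryos. Every PrE sum was above every EPI sum, with a log2 fold change of EPI minus PrE of -2.74 ± 0.79. That value passed the threshold, but with the embryo as a paired block it was -3.39 and did not, and it was also lost without embryo 4, 5, 6 or 7 or without the shallow cells. Exon bases shared with 4731419I09Rik make up 10.5% of the gene.

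Efna3 (ephrin-A3, chr3:89313899-89322965) was at 16.6 CPM at the lowest, 29.4 at the median and 43.3 at the highest in PrE, in 28 of 29 cells. In EPI it was at 0 in 5 embryos and at 1.47 CPM in embryo 2, in 1 of 37 cells. The log2 fold change was -6.90 ± 1.52, and 14.1% of its exon bases overlap Gm15998. Efnb1 (ephrin-B1, chrX:99136130-99148991) was at 9.88, 31.5 and 92.2 CPM at the lowest, median and highest in PrE, and at 0 in 5 of 6 EPI sums with 0.398 CPM in embryo 4. Its share of all counts was 497 times higher in PrE (exact 95% interval 213 to 1533, counting error only) on 5 EPI counts from 1 cell. Its log2 fold change was -8.78 ± 1.34. Efna3 and Efnb1 passed the threshold with the embryo as a paired block too, and none of the 3 ephrins passed it with the 2 WT embryos as the only controls.

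The 2 promoters of these PrE ephrins that lie outside the annotated gene and can be read from RefSeq are given in the same way, with the GATA letters AGATAA, the motif of factors such as GATA4 and GATA6 that mark PrE, in capitals.
Efna4, chr3:89338029-89338278, minus strand: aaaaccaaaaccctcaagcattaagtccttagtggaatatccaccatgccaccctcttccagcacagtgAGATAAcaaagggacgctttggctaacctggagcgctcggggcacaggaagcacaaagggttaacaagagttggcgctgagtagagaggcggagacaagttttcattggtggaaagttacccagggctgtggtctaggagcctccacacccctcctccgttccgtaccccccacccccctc
Efnb1, chrX:99135811-99136060, plus strand: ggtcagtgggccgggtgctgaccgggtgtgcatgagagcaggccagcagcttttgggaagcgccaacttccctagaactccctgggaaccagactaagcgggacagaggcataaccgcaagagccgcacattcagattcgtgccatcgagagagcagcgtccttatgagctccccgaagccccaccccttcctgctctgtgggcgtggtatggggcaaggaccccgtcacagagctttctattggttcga
The Efna4 window holds the letters at 1 place, 181 bases before the start, and the Efnb1 window does not hold them.

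In MUT embryos these PrE ephrins were lower than in PrE. Efna3, Efna4 and Efnb1 of the 2 E4.5 MUT embryos were all below the lowest PrE sum, with log2 fold changes against PrE of -3.22 ± 1.57, -2.11 ± 0.68 and -2.93 ± 1.12, none of which passed the threshold by edgeR. DESeq2 called Efna4 and Efnb1, limma called Efna3 and Efna4, and edgeR called Efna3 and Efna4 without MUT embryo 3. Efnb1 was at 3.20 and 6.68 CPM there, above the EPI sums. At E3.5 it was at 8.96, 11.4, 7.43 and 1.83 CPM in MUT and at 0.230 to 3.31 CPM in WT/HET, where 1 MUT embryo overlapped the controls and the log2 fold change was 1.99 ± 0.68. Efnb2 (ephrin-B2), the ligand of EphB4, was at 32.2, 13.3, 10.3 and 5.63 CPM in E3.5 MUT and at 0 to 7.48 CPM in WT/HET, with a log2 fold change of 2.32 ± 1.01. Most of the highest value, 94.6% of the counts, came from 1 cell of embryo 10. Neither ephrin-B gene passed the threshold at E3.5 by edgeR, while DESeq2 called Efnb1 and limma called both. Ephb4, which encodes the receptor of ephrin-B2, overlapped between the groups at each stage. It was at 11.4 to 16.1 CPM in E3.5 MUT and 6.70 to 41.8 CPM in WT/HET. At E4.5 it was at 12.1 and 6.11 CPM in MUT, 4.75 to 23.03 CPM in EPI and 0 to 14.2 CPM in PrE. Efna5 had 71 counts in 5 of 172 cells and was at 0 in all E4.5 groups, and 0 of 37 EPI cells allows a share of up to 8.11% of cells with a count, which says nothing of expression below detection.

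**Figure D4:**
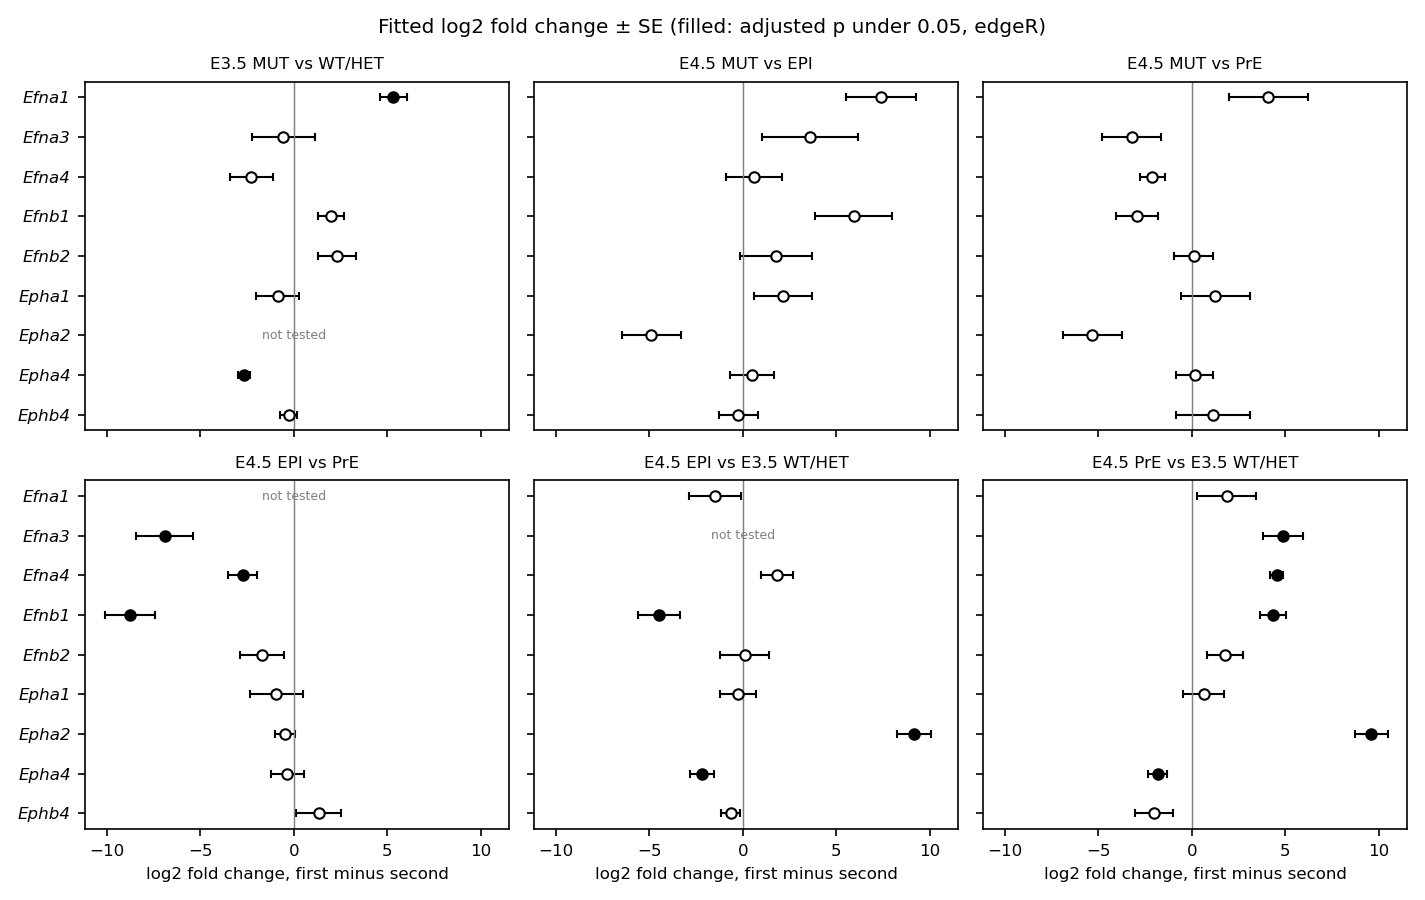
Fitted log2 fold change (horizontal axis, first group minus second) with its SE for 9 members in 6 comparisons of embryo sums, filled where the adjusted p over all genes was under 0.05; "not tested" marks genes with too few counts. Efna1 and Epha4 are filled at E3.5, no member is filled in the 2 E4.5 MUT panels, and Efna3, Efna4 and Efnb1 are filled between EPI and PrE.

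Counts of members past the threshold are read beside the share of all genes that passed, and nothing is drawn from them because these comparisons chose the members. At E3.5, 2 of 8 members tested passed between MUT and WT/HET, where 6.18% of 12075 genes passed. At E4.5, 0 of 9 passed between MUT and EPI by edgeR, where 4.92% of 12953 genes passed, with 3 members at an unadjusted p under 0.05, 1 called by DESeq2 and 2 by limma. Of all genes there, 2455 had an unadjusted p under 0.05 by edgeR, 1714 were called by DESeq2 and 1479 by limma. Between MUT and PrE, 0 of 9 members passed by edgeR, where 3.81% of 12246 genes passed, with 3 members at an unadjusted p under 0.05, 3 called by DESeq2 and 3 by limma. Of all genes there, 2015 had an unadjusted p under 0.05 by edgeR, 1224 were called by DESeq2 and 1097 by limma. Between EPI and PrE, 3 of 8 passed, all lower in EPI, where 9.81% of 9762 genes passed. From E3.5 WT/HET to EPI, 3 of 8 passed (Epha2 higher, Epha4 and Efnb1 lower), where 31.9% of 11142 genes passed. From E3.5 WT/HET to PrE, 5 of 9 passed (Efna3, Efna4, Efnb1 and Epha2 higher, Epha4 lower), where 31.7% of 10800 genes passed.

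Heterozygosity was the 1 contrast the choice of members did not use. Between 2 HET and 5 WT embryos at E3.5, 0 of 8 members tested passed by edgeR, DESeq2 or limma, and none had an unadjusted p under 0.05. Adjusted p-values of edgeR's quasi-likelihood test ran from 0.856 to 0.985. Epha4 differed by -0.22 ± 0.23 and Efna1 by -0.47 ± 1.64 on the log2 scale, and the sign for Efna1 turned (0.17) without embryo 13. Over all genes 0% of 13351 passed by edgeR, with 1056 at an unadjusted p under 0.05, 181 called by DESeq2 and 3 by limma.

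Levels per length put the genes of a group in order. Per kb of exon, Efna1 led the family in both MUT groups, at 30.7 ± 12.2 CPM per kb (SD, n = 4) at E3.5, and 47.6 ± 7.39 (SD, n = 2) at E4.5. The next gene was Ephb6 at E3.5, at 4.27 ± 2.82, and Efna4 at E4.5, at 11.4 ± 11.3. In E3.5 WT/HET the leading gene was Epha4, at 10.6 ± 1.86, and the genes behind it, Ephb3 at 4.42 ± 1.86 and Ephb4 at 3.67 ± 2.58, did not differ beyond their spread. In EPI, Efna4 at 7.45 ± 6.98 and Epha2 at 7.44 ± 4.65 came first, and they did not differ beyond their spread either. In PrE, Efna4 led at 50.01 ± 13.3, followed by Efna3 at 11.9 ± 4.41, Efnb1 at 10.96 ± 9.17 and Epha2 at 10.4 ± 5.77, which overlapped. Summed over the 5 ephrin-A genes, the level was 6.76 ± 1.38 CPM per kb in E3.5 WT/HET and 34.7 ± 12.97 in E3.5 MUT, of which Efna1 made up 88.4%. It was 11.3 ± 7.29 in EPI, 67.3 ± 15.8 in PrE and 63.8 ± 19.4 in E4.5 MUT. The sums of PrE (50.8 to 85.3) and E4.5 MUT (50.1 and 77.5) overlapped, and the gene that led them was Efna4 with 74.3% in PrE and Efna1 with 74.6% in MUT. Summed EphA receptors were at 14.5 ± 2.20 CPM per kb in E3.5 WT/HET and 4.77 ± 2.63 in E3.5 MUT, and at 10.9 ± 3.91 in EPI, 15.3 ± 9.57 in PrE and 8.11 ± 0.19 in E4.5 MUT. Summed EphB receptors were at 9.57 ± 2.96 and 9.59 ± 3.65 CPM per kb in E3.5 WT/HET and MUT.

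**Figure D5:**
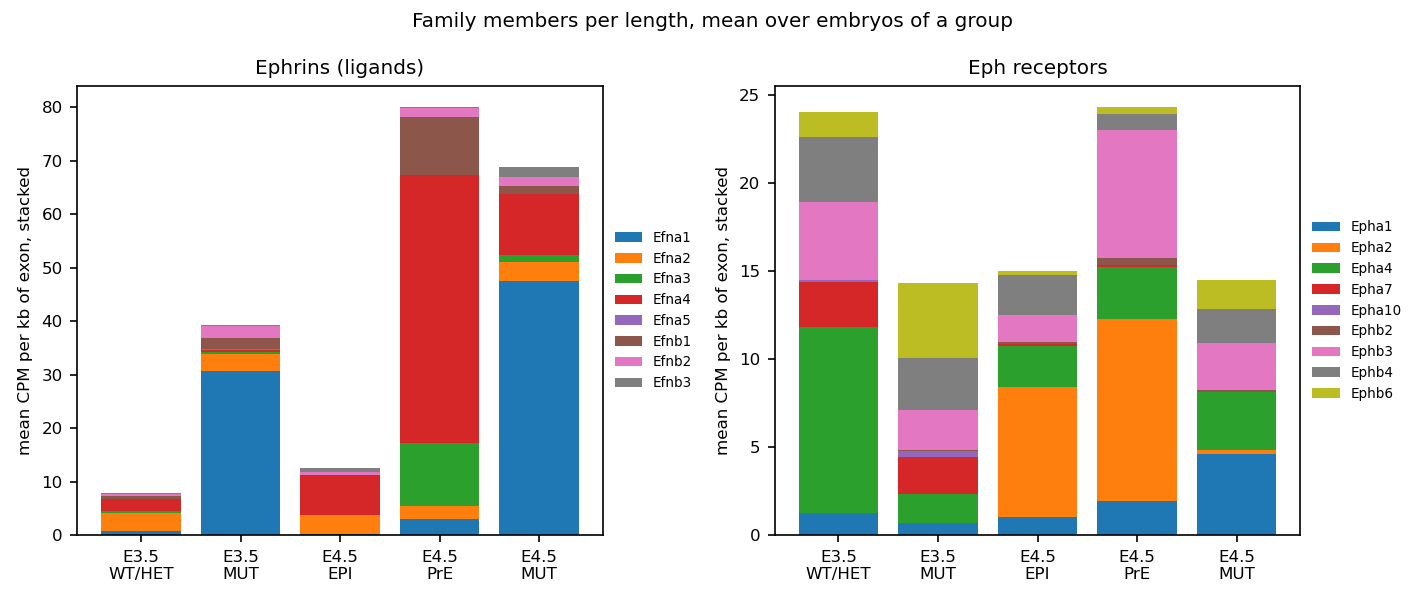
Mean level of each ephrin (left) and Eph receptor (right) in CPM per kb of exon (vertical axes), stacked by gene for the 5 groups; receptors at or near 0 in every group are left out. The ephrin stack is mostly Efna1 in the MUT groups and mostly Efna4 in PrE, and among receptors the Epha4 layer is thinner in E3.5 MUT than in WT/HET and the Epha2 layer is thin in E4.5 MUT beside EPI and PrE.

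Of the 12 other family genes, 5 had enough counts to be tested between MUT and WT/HET at E3.5. By edgeR 0 passed, beside 6.18% of all genes, with 1 at an unadjusted p under 0.05, 0 by DESeq2 and 1 by limma. Of all 12075 genes, 2588 had an unadjusted p under 0.05 by edgeR, 1607 were called by DESeq2 and 1353 by limma. Likewise 5 of the 12 were tested and 0 passed against EPI and against PrE, beside 4.92% and 3.81% of all genes. None had an unadjusted p under 0.05, and none passed by DESeq2 or limma. Ephb6, a receptor that lacks kinase activity, was at 16.1 ± 10.6 CPM in E3.5 MUT and 5.42 ± 3.39 CPM in WT/HET, with a log2 fold change of 1.57 ± 0.55 and an adjusted p of 0.112 by edgeR. Ephb3 was lower in EPI than in PrE, at 10.0 ± 5.02 and 48.5 ± 25.7 CPM (SD, n = 6 each), with a log2 fold change of -2.28 ± 0.58 and an adjusted p of 0.0225 by edgeR. That call was lost with the embryo as a paired block, where the log2 fold change was -2.22, and without embryo 2, 4, 5 or 7. Ephb3 was also lower in EPI than in E3.5 WT/HET (log2 fold change -1.52 ± 0.47, adjusted p = 0.0212 by edgeR), a call lost without embryo 14 or without the shallow cells. Epha7 was lower in EPI (log2 fold change -4.66, adjusted p = 0.0216 by edgeR) and in PrE (-4.77, adjusted p = 0.0141) than in E3.5 WT/HET, where it was at 11.4 to 39.2 CPM. At E3.5 it was found in 42 of 58 WT/HET cells and 8 of 29 MUT cells, at 0 to 65.7 CPM over the MUT embryos. Ephb1 and Epha3 had 0 counts in all 172 cells, Epha8 had 1 count, Epha6 had 5, and Epha5 had 108 counts in a single cell.

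Components that act below or beside Eph receptors, a list of 43 genes of adaptors, kinases, small GTPases, their regulators and the sheddase Adam10, were compared in the same way. At E3.5, 39 were tested and 0 passed by edgeR, beside 6.18% of all genes. Of these 39, 9 had an unadjusted p under 0.05, 4 were called by DESeq2 and 6 by limma. Of all 12075 genes, 2588 had an unadjusted p under 0.05 by edgeR, 1607 were called by DESeq2 and 1353 by limma. The median log2 fold change of the 39 was -0.15, beside -0.02 over all genes. Against EPI, 36 were tested and 0 passed by edgeR, beside 4.92% of all genes. Of these 36, 4 had an unadjusted p under 0.05, 3 were called by DESeq2 and 2 by limma. Of all 12953 genes, 2455 had an unadjusted p under 0.05 by edgeR, 1714 were called by DESeq2 and 1479 by limma. The median of the 36 was 0.34 beside -0.03. Against PrE, 3 of 38 passed, a share of 7.89% beside 3.81% of all genes. Chn2, a Rac regulator of the chimaerin family, was at 0.569 ± 0.349 CPM in MUT (SD, n = 2) and 50.2 ± 23.9 CPM in PrE (SD, n = 6), with an adjusted p of 0.00739 by edgeR. Crk, an SH2 and SH3 adaptor, was at 18.4 ± 9.26 and 96.2 ± 22.3 CPM, with an adjusted p of 0.0247 by edgeR. Rap1gap, which switches off the GTPase Rap1, was at 2.36 ± 0.04 CPM in MUT and near 0 in PrE, with an adjusted p of 0.0441 by edgeR. The Chn2 and Crk calls were lost without either MUT embryo, Crk's also without embryo 2, and the Rap1gap call in each of the 8 fits that left out 1 embryo. Between EPI and PrE, 3 of 34 passed, a share of 8.82% beside 9.81% of all genes. Chn1 was higher in EPI, and Chn2 and Cdc42 were lower, with Chn1 and Cdc42 named after their values were seen. At least 1 of these 3 calls was lost with the embryo as a paired block. From E3.5 WT/HET 8 of 36 passed in EPI and 11 of 36 in PrE. These were shares of 22.2% and 30.6% beside 31.9% and 31.7% of all genes.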

How the data were processed

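Cells were sequenced as paired reads of 125 bases. The authors aligned them with STAR to mm10 and deposited whole-number counts per gene and cell made with HTSeq, together with counts of reads in no gene (4.72%), in more than 1 gene (8.65%) or multimapped (32.3%), which were left out of library sizes. Multimapped reads had a median share of 38.8% and 41.1% in E3.5 WT/HET and MUT cells and 19.7 to 24.9% in the E4.5 groups.

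The members and lists were chosen with earlier results of these data known. Genes named beside the members were the other family genes, Pou5f1, up to 5 genes in each direction of the signalling list or within 200 kb of Efna1 that were called in a MUT comparison, and the 5 genes most correlated with Efna1. TE markers beside Efna1 came from the marker list. The signalling and marker lists were written from general knowledge. Counts were summed per embryo and, at E4.5, per lineage, with the embryo of each cell taken from the study's sample table. No 2 cells were identical (highest correlation 0.919). Each comparison was fitted on its own groups with edgeR 4.0.16 in R 4.3.3 (TMM factors, filterByExpr, quasi-likelihood F test, prior count 0.125, Benjamini-Hochberg threshold 0.05). The study's own test of single cells was not used, because cells of 1 embryo are not replicates. Embryos are separate animals, and litters were not given in the sources used here.

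EPI and PrE sums of the same embryo are paired by origin. Their deviations from the group means correlated at 0.0218 to 0.0987 over 5988 genes in the 6 pairs, and in 5 of 6 embryos the own partner was the best match. Alternatives were DESeq2 1.42.0, its size factors in edgeR, limma 3.58.1 on means of log values over cells, no filter, a filter at 10 CPM, no shallow cells, WT embryos as the only controls, the embryo as a block, and each embryo left out. Shares of cells used at least 1 count, and also cells thinned to 661516 counts at E3.5 (7 left out) and 832934 at E4.5 (2 left out). Intervals and floors (3 counts) cover counting error only. Scripts were tested on simulated data.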

Additional observations from a re-analysis of the deposited data

Results flagged for a closer look

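In 12 of 38 combinations of a member and a group, the embryo at one end stood apart from the rest by Dixon's criterion, which chance passes in about 1 of 20 groups of normally distributed values. Where all other embryos are at 0, any single embryo above 0 passes by construction, so the number of such cases is not compared with that rate. Most of these levels rest on few cells. Efna1 was at 2.75 CPM in EPI of embryo 5, where the other 5 were at 0, and at 26.7 CPM in PrE of embryo 6, where the next was at 5.19, and in both sums 1 cell gave all counts. Efna3 was at 2.46 CPM in E3.5 MUT embryo 10 and at 1.47 CPM in EPI of embryo 2. Efna4 was at 2.59 CPM in E3.5 MUT embryo 12, with 97.1% of the counts in 1 cell. Efna5 was at 2.34 CPM in E3.5 WT/HET embryo 15 and at 2.39 CPM in E3.5 MUT embryo 17. Efnb1 was at 0.398 CPM in EPI of embryo 4. Epha1 was at 9.68 CPM in E3.5 MUT embryo 12, where 3 of 10 cells had it. Epha2 was at 0.0854 CPM in E3.5 MUT embryo 17, which is 1 count. Epha4 was at 76.5 CPM in PrE of embryo 1, where the next embryo was at 19.04 CPM. Ephb4 was at 14.2 CPM in PrE of embryo 2, where the next was at 5.09 CPM.

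For Epha4 and Ephb4 every MUT embryo lay on one side of the mean of the controls at E3.5 and on the other side of the mean of 1 control lineage at E4.5. Mean Epha4 in MUT was 7.61 CPM above EPI at E4.5 and -71.9 CPM from WT/HET at E3.5. Mean Ephb4 in MUT was 4.90 CPM above PrE at E4.5 and -3.19 CPM from WT/HET at E3.5. Against EPI, mean Ephb4 was lower in MUT at E4.5 (9.11 and 10.5 CPM), as at E3.5. The E4.5 log2 fold changes were smaller than their SE (Epha4 0.47 ± 1.18 against EPI, Ephb4 1.12 ± 1.98 against PrE). So was that of Ephb4 at E3.5, at -0.27 ± 0.46, and its sign turned (0.12) without embryo 13. These differences between stages were not tested, and stage and plate cannot be told apart.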

How the results depend on the processing

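The counts of calls for members describe the fits and support nothing, since the same levels chose the members. At E3.5 Efna1 and Epha4 passed in 18 of 18 alternatives, with log2 fold changes of 4.04 to 5.75 and -3.86 to -2.43. Efna1 at E4.5 passed in 4 of 15 alternatives against EPI and in 1 of 15 against PrE. Between EPI and PrE, Efna3 and Efnb1 passed in 13 of 14 and Efna4 in 7 of 14. Of 70 fold changes, 16 changed sign in at least 1 alternative, and 0 of these 16 passed the threshold in the reported edgeR fit or where the sign changed. Between HET and WT, where members were tested, leaving out 1 embryo moved Efna1 between -0.79 and 0.17 (without embryo 13), Efna4 between -1.52 and 0.43 (without embryo 15), Efnb1 between -0.66 (without embryo 15) and 0.91, and Epha1 between -1.62 and 0.46 (without embryo 16, and 0.28 without embryo 11), and Efnb1 was -0.19 with limma. The cause of the changes below was not tested. With DESeq2 the genes called were 1607 (E3.5 MUT against WT/HET), 1714 and 1224 (E4.5 MUT against EPI and PrE), 1451 (EPI against PrE) and 181 (HET against WT). With limma they were 1353, 1479, 1097, 1824 and 3, and 5793 and 5191 for EPI and PrE against E3.5 WT/HET, of which 1286 and 1194 were higher. limma also moved the median of all genes by -0.22, -0.28, -0.42, -0.64 and -0.52 (log2) in the 3 MUT and 2 stage comparisons. With WT embryos as the only controls the genes called were 435, 48, 27 and 3 in the first 4 comparisons. Members called were 5 with limma at E3.5. Against EPI they were 1 with DESeq2, without a filter or at 10 CPM, and 2 with limma. Against PrE they were 3 with DESeq2 and 3 with limma. Between EPI and PrE they were 0 with WT embryos as the only controls. Signalling genes called were 4 with DESeq2 and 6 with limma at E3.5, and 3 with DESeq2, 1 with its size factors, 1 at 10 CPM and 2 with limma against EPI. Against PrE, and between EPI and PrE, they were 0 when WT embryos alone served as controls, 8 with DESeq2 or limma between EPI and PrE, and 18 and 19 with limma for EPI and PrE against E3.5.

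With the embryo as a paired block, 840 genes, 2 members and 2 signalling genes were called between EPI and PrE, where 958, 3 and 3 were called without it. The calls of Efna4 and Ephb3 were lost, and so was at least 1 of those of Chn1, Chn2 and Cdc42. Leaving out 1 embryo at a time gave 482 to 882 genes, 2 to 3 members and 0 to 3 signalling genes at E3.5. It gave 226 to 774, 0 to 1 and 0 to 1 against EPI, where a member passed without embryo 3 (Epha2) or 5 (Efna1). It gave 169 to 534, 0 to 3 and 0 to 2 against PrE, with 3 members without embryo 3. It gave 649 to 916, 2 to 3 and 3 to 4 between EPI and PrE, 3026 to 3972, 2 to 4 and 6 to 10 for EPI against E3.5, and 2894 to 3905, 5 and 8 to 13 for PrE against E3.5. A fit that leaves 1 MUT embryo at E4.5 assumes that it varies like the other group. With 2 MUT embryos at E4.5, and single cells that gave all counts of some sums, a level under a few CPM is not firmly measured.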
